A study of Mus musculus with 58 samples.

Results

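The genes described here encode receptors that microglia use to take up dying cells and modified lipoproteins, together with the bridging proteins of 1 receptor family. They are the receptor kinases Axl, Mertk and Tyro3, their ligands Gas6 and Pros1, and the receptors Cd36, Msr1, Stab1, Scarb1 and Timd4. These 10 genes were taken by symbol from 3 tables of raw read counts that together list 25387 genes. All 10 had a row in the age table. Tyro3, Cd36 and Timd4 had no row in the table of antisense oligonucleotide (ASO) experiments in wild-type mice. Cd36, Msr1 and Timd4 had none in the one from knockout mice. These ASO tables list 10277 and 10589 genes, with 0 genes at 0 in every library, against 24940 genes in the age table. Shares over all genes in the ASO sets refer to these shorter lists.

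The RNA came from forebrain microglia of C57BL/6 mice, sorted for CD11b and CX3CR1 with low CD45. SgshKO mice lack Sgsh, whose product is a lysosomal sulfatase needed to break down heparan sulfate, and the labels do not say how the allele was made. In the age series WT and SgshKO mice were compared at 3 weeks (3 WT and 4 SgshKO libraries), at 4 months (2 and 2) and at 8 months (4 and 7). In the WT ASO set, 5 groups of 4 libraries came from mice injected into the cerebral ventricles with PBS, with an ASO labelled ntc, or with one of 3 ASOs whose targets were Mitf, Tfeb and Tfe3. In the SgshKO ASO set, 8 libraries came from mice given ntc and 8 from mice given the Mitf and Tfe3 ASOs together. All ASO cells were collected 14 days after the 1 injection, and the ages of these mice are not given in the labels. The labels do not say that libraries of a group came from separate mice, so the p-values measure the spread between libraries, which may in part be technical.

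Microglia clear dying neurons and debris by a process called efferocytosis. A dying cell exposes the lipid phosphatidylserine, and Gas6 or protein S, the product of Pros1, binds that lipid at one end and an Axl, Mertk or Tyro3 (TAM) kinase at the other. In resting brain MERTK is the main TAM kinase of microglia, while AXL is known as a receptor that rises in inflamed or disease-associated microglia. TIM-4, the product of Timd4, and STAB1 bind phosphatidylserine directly, and CD36, MSR1 and SCARB1 bind oxidised or other lipoproteins as well as dying cells. MITF, TFEB and TFE3 are related transcription factors that act on genes of the lysosome.

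Library totals ran from 8191508 to 27106584 counts in the age series, from 14372015 to 30378870 in the WT ASO set and from 12517838 to 30431437 in the SgshKO ASO set. Levels are given as CPM, counts scaled so that libraries of different size can be compared and taken relative to the library total over tested genes times the TMM factor. All 8 microglial markers, such as P2ry12 and Tmem119, were detected in every group of the age series, and their summed level was lower in SgshKO with no overlap at each age. It was 48009 to 49281 CPM in WT and 42180 to 45199 CPM in SgshKO at 3 weeks, 40375 and 44555 against 26164 and 29560 CPM at 4 months, and 36961 to 44643 against 27797 to 31066 CPM at 8 months. The part of that shift in the lower Mertk and Scarb1 levels below was not tested. A list of 10 monocyte and neutrophil markers summed to 7.93 to 19.3 CPM in the WT libraries and to 8.51 to 36.6 CPM in SgshKO at 3 weeks. It summed to 3104 and 15160 CPM in the 2 SgshKO libraries at 4 months and to 448 to 5797 CPM in the 7 at 8 months, so these libraries stand apart. A list of 8 markers of macrophages at the brain's borders summed to 16.8 to 32.8 CPM in WT and to 65.1 to 109 CPM in SgshKO at 8 months. A list of 9 endothelial markers was lower in SgshKO with no overlap at each age. At 8 months it summed to 66.6 to 73.4 CPM in WT and 37.5 to 56.8 CPM in SgshKO. A list of 6 mural and fibroblast markers then had 13.9 to 17.6 against 0.138 to 1.51 CPM. At 4 months that list was higher in SgshKO. Sums for astrocyte, oligodendrocyte and neuron markers overlapped at 8 months. The part of these cells in the member levels was not tested. Xist was above Ddx3y in all libraries at 3 weeks, whereas Ddx3y was above Xist in all 4 WT libraries at 8 months and in 4 of the 7 SgshKO ones. At 4 months each genotype had 1 library of either kind. Age in WT is therefore largely confounded with sex-linked transcripts, and fits with Ddx3y minus Xist as a covariate are given beside the WT age results where they end a call. Sgsh itself had 20.1 to 34.7 CPM in SgshKO and 31.9 to 59.2 CPM in WT libraries at 8 months, and the labels do not say how the gene is altered. In bulk RNA from sorted cells, a change in the mix of cells and a change of RNA per cell cannot be told apart.

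Axl was the member with the largest genotype difference at 4 and at 8 months. At these ages Mertk went the other way and Msr1 was higher in SgshKO. Scarb1 was called lower at 8 months alone. In edgeR's quasi-likelihood test with Benjamini-Hochberg adjustment over all genes tested, at a threshold of 0.05, SgshKO had 1 member called higher and 1 lower at 3 weeks. There were 2 higher and 1 lower at 4 months and 3 higher and 2 lower at 8 months, each time of 9 tested. Timd4 did not pass the filter on low counts. Over all 14309 genes tested, the share called was 9.03% at the earliest age (5.31% higher, 3.72% lower), 19.5% at the middle one (10.3% and 9.26%) and 40.5% at the latest (21.6% and 18.9%). The members' median log2 fold change was 0.00, -0.09 and 0.01 at the 3 ages, beside -0.02, 0.02 and 0.02 over all genes. Of the genes called, 58.8% were higher at 3 weeks and 53.3% at 8 months, against 43.9% and 35.2% in a limma fit of the TPM values.

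**Figure D1:**
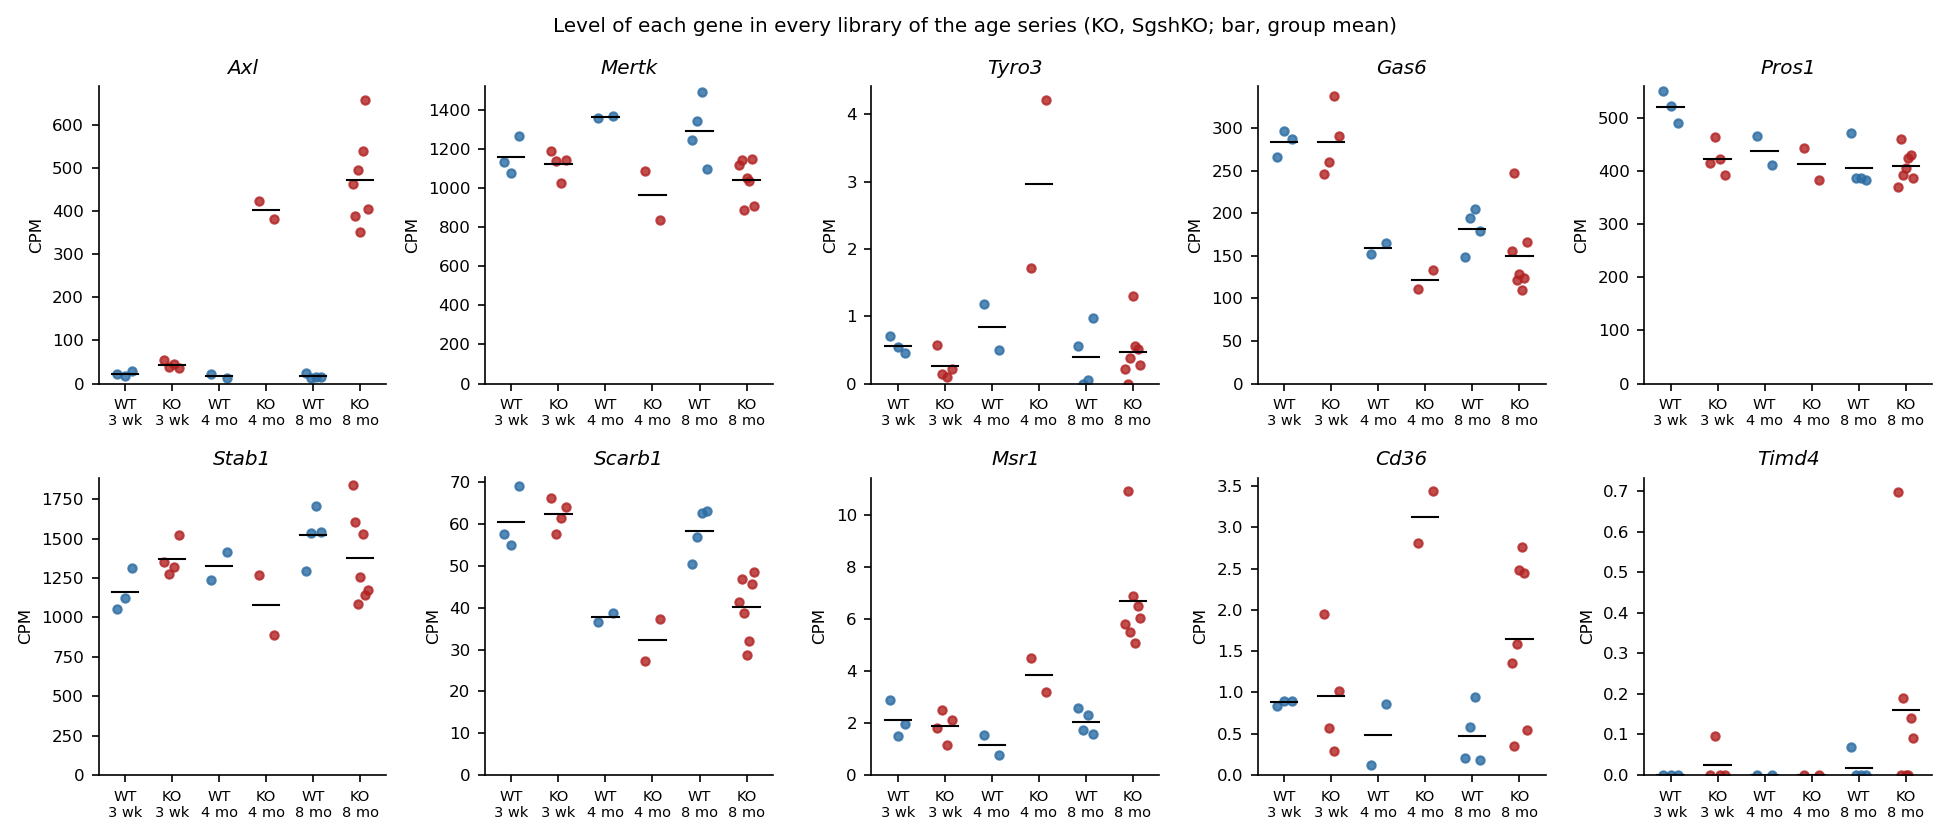
Level of each of the 10 genes in CPM on a linear axis from 0, by genotype and age, with 1 point per library (blue, WT; red, SgshKO, written KO) and a bar at the group mean. Axl at 8 months lay at 352 to 659 CPM in SgshKO and at 12.8 to 24.5 CPM in WT, while Stab1 and Pros1 overlapped between genotypes at that age.

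Axl (chromosome 7, 25756500 to 25788733, minus strand, mm10) encodes a kinase that binds Gas6 and is low in resting microglia. At 3 weeks its level was 21.8, 16.4 and 30.1 CPM in WT and 54.7, 39.2, 45.5 and 36.0 CPM in SgshKO. The SgshKO libraries all lay above the WT ones. Axl and Pros1 were the 2 of 9 members whose genotypes did not overlap at this age, beside 22.5% of all genes. The log2 fold change was 0.94 ± 0.23 (SE) with an adjusted p of 0.00934 in edgeR, and without WT replicate 2 that p was 0.0895.

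At 4 months Axl stood at 22.9 and 13.3 CPM in WT and at 424 and 382 CPM in SgshKO. At 8 months it stood at 24.5, 12.8, 16.1 and 14.3 CPM in WT, and in SgshKO at 352 CPM in the lowest, 464 CPM in the median and 659 CPM in the highest library. The groups were far apart at both ages, and WT libraries stayed in the range they had at 3 weeks or just below it. The log2 fold change was 4.50 ± 0.34 at 4 months (edgeR adjusted p 1.17e-09) and 4.81 ± 0.23 at 8 months (adjusted p 4.28e-14).

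The genotype difference of Axl grew with age. It was larger by 3.56 ± 0.39 on the log2 scale at 4 months than at 3 weeks (edgeR interaction, adjusted p 1.52e-05) and by 3.86 ± 0.31 at 8 months (adjusted p 1.41e-08). Of all genes tested, 2.52% passed the first interaction (1.63% higher, 0.895% lower) and 9.25% the other (5.98% and 3.26%), and of the 9 members 1 and 2 did, all higher. Between 4 and 8 months no member's genotype difference was called to change in edgeR, none had an unadjusted p below 0.05, DESeq2 called none, and 0.391% of all genes passed. For Axl that difference was 0.31 ± 0.36.

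Within SgshKO at 8 months, the libraries richest in monocyte and neutrophil markers were inside the Axl range of the others. The 2 libraries with over 2000 CPM of those markers had 464 and 496 CPM of Axl, and the other 5 had 352 to 659 CPM. That limit was chosen later, with results in view. Every SgshKO library of this age held at least 448 CPM of the markers, against at most 14.4 CPM in WT. The split within SgshKO therefore cannot address the genotype difference. The 4 libraries with Ddx3y above Xist had 352 to 541 CPM and the 3 with Xist above Ddx3y had 405 to 659 CPM, all above every WT library. The border macrophage markers summed to 56.0 to 76.3 CPM in WT and 84.1 to 110.4 CPM in SgshKO at 3 weeks. At 4 months they summed to 10.3 and 11.2 CPM against 72.4 and 127 CPM. Of the 8 markers, 0 were called at 3 weeks and 2 at 4 months. The 3-week sum was mostly Mrc1, with a mean of 95.1 CPM in SgshKO and 64.0 CPM in WT (edgeR adjusted p 0.157). The part of border macrophages, monocytes or neutrophils in the Axl difference was not tested.

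Mertk (chromosome 2, 128698915 to 128803007, plus strand) encodes the kinase that dominates in resting microglia, and it had the highest level per kilobase of transcript of the 10 genes in all 6 groups. At 3 weeks it was at 1132, 1079 and 1266 CPM in WT and at 1193, 1138, 1025 and 1144 CPM in SgshKO, and the groups overlapped. The fold change was not called (log2 -0.04 ± 0.11, edgeR adjusted p 0.908). At 4 months it was at 1360 and 1372 CPM in WT and at 1087 and 839 CPM in SgshKO, a fall of 0.50 ± 0.14 on the log2 scale (adjusted p 0.0137). That call was lost with only the 2 groups in the fit (adjusted p 0.0508) and without any 1 of 3 libraries, where the adjusted p reached 0.151.

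At 8 months Mertk was at 1248, 1343, 1491 and 1098 CPM in WT. In SgshKO it ran from 888 CPM through a median of 1050 CPM to 1151 CPM, so the lowest WT library lay inside the SgshKO range. Mertk fell by 0.31 on the log2 scale (SE 0.09, edgeR adjusted p 0.00634) and was called under all 20 alternative fits, with adjusted p up to 0.0487. On the TPM scale the median of all genes moved by -0.11 at that age, and Mertk differed from it by -0.34.

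Axl and Mertk were also compared within each library, per kilobase of transcript, so that library size drops out. Axl amounted to 1.33% to 2.08% of the Mertk level in WT at 3 weeks and to 2.75% to 4.02% in SgshKO. At 4 months it amounted to 0.852% and 1.48% in WT against 34.2% and 39.9% in SgshKO. At 8 months the range was 0.838% to 1.72% in WT and 29.4% to 50.2% in SgshKO. The genotypes did not overlap at any of the 3 ages, and even in the highest SgshKO library Axl stayed below Mertk.

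Tyro3 (chromosome 2, 119799514 to 119818103, plus strand) encodes the TAM kinase that in brain is known mainly from neurons, and it was near the detection limit. The WT libraries held 27 counts in all at 3 weeks, 17 at 4 months and 20 at 8 months, and the SgshKO libraries 19, 63 and 59. The highest level was 4.21 CPM, in 1 of the 2 SgshKO libraries at 4 months, and its partner had 1.71 CPM against 1.18 and 0.502 CPM in WT. The fold changes were not called at any age in edgeR (log2 -1.05 ± 1.09, 1.83 ± 1.40 and 0.32 ± 0.91), and at this depth differences of that size were not resolved.

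**Figure D2:**
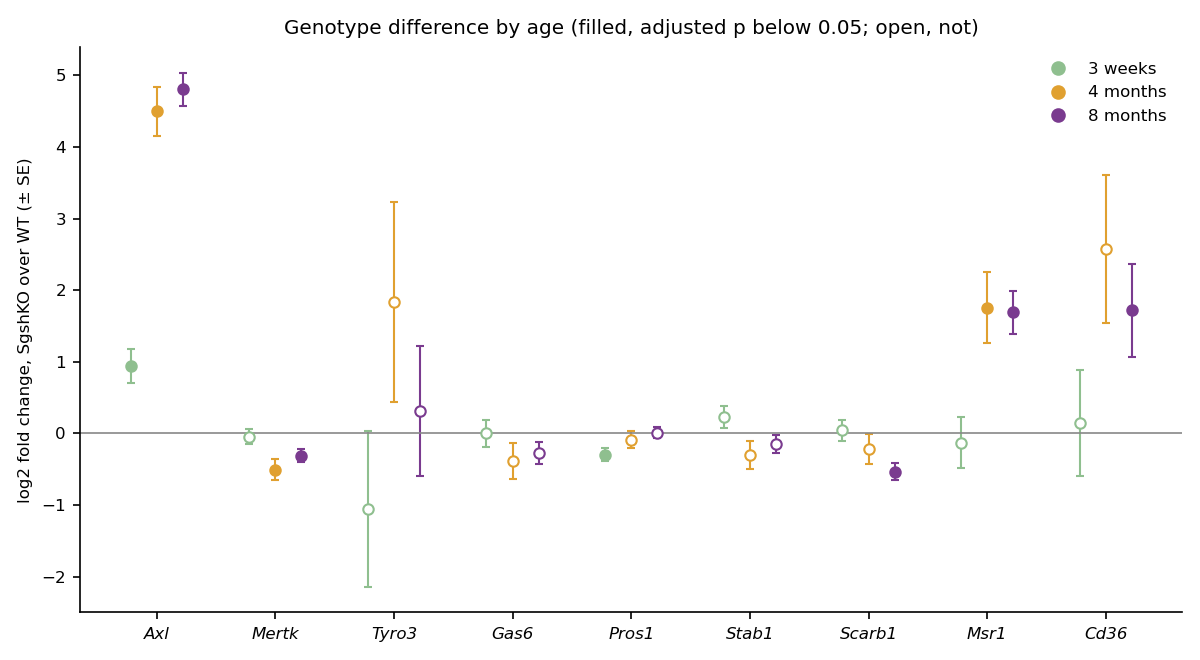
Log2 fold change of SgshKO over WT with its SE for the 9 tested members at 3 weeks, 4 months and 8 months, from 1 edgeR fit of 22 libraries. Axl stands at 0.94, 4.50 and 4.81, Msr1 at -0.13, 1.76 and 1.69, and the other members lie nearer to 0 or have wide errors.

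Promoter windows from RefSeq (GRCm38.p6) were at hand for 8 of the 10 members. They were searched on both strands for CACGTG, the E-box core that MITF, TFEB and TFE3 are known to bind, and for TCATGTG, an M-box core. Neither was in any of the 8 member windows of 300 bases, while 7.15% and 3.77% of all 32851 windows held them. That says only that these letters are not in these windows. GAGGAA, a core of motifs bound by the microglial factor PU.1, was a later choice, made with results in view, and was in 28.3% of all windows and in those of Axl and Stab1. The 250 bases before the start are shown for the 2 kinases that moved in opposite directions, with GAGGAA or its reverse complement in capitals.
Axl promoter (chr7:25788734-25788983, minus strand): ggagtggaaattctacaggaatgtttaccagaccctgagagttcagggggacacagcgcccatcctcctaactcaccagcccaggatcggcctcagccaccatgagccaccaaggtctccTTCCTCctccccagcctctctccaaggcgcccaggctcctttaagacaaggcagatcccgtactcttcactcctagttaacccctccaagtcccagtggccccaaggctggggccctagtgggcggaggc
Mertk promoter (chr2:128698665-128698914, plus strand): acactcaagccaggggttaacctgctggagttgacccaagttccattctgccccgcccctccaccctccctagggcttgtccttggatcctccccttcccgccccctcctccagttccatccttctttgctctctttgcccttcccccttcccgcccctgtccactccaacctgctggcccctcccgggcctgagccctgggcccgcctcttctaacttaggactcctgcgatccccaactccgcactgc
The 1 match in Axl begins 130 bases before the start, and the Mertk window holds none.

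Gas6 (chromosome 8, 13465374 to 13494535, minus strand) encodes the bridging ligand that binds all 3 TAM kinases and AXL most tightly. Its level at 3 weeks was 266, 297 and 288 CPM in WT and 246, 261, 338 and 291 CPM in SgshKO. At 4 months it was 153 and 165 CPM in WT against 111 and 133 CPM in SgshKO, which did not overlap but was not called (log2 -0.38 ± 0.25, edgeR adjusted p 0.325). At 4 months 58.1% of all tested genes had groups of 2 that did not overlap, and of the members 6 of 9. At 8 months it was 149, 195, 205 and 179 CPM in WT, and in SgshKO 110, 129 and 248 CPM in the lowest, median and highest library.

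The genotypes overlapped for Gas6 at 8 months and the difference was not called (log2 -0.28 ± 0.15, edgeR adjusted p 0.159). SgshKO replicate 2, at 248 CPM, stood apart from the other 6, and without it the log2 fold change was -0.47 with an adjusted p of 0.00179. In the TPM fit it was -0.45, or -0.34 from the median of all genes, with a limma adjusted p of 0.0284.

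Gas6 was lower at both later ages in WT and at 8 months in SgshKO. In WT it fell by 0.84 on the log2 scale from 3 weeks to 4 months (edgeR adjusted p 0.0344) and by 0.64 to 8 months (adjusted p 0.035). In SgshKO it fell by 0.92 from 3 weeks to 8 months (adjusted p 5.36e-05). The WT calls were lost without single libraries, with adjusted p up to 0.262 and 0.118. The one at 8 months was kept in 6 of 14 alternatives and was also lost in the TPM fit (limma adjusted p 0.0668) and with a Ddx3y minus Xist covariate (0.0641). Among the 9 members, 2 were called lower in WT at 4 months, beside 5.21% of all genes (2.61% higher, 2.6% lower), and 2 at 8 months, beside 7.65% (3.02% and 4.63%).

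Pros1 (chromosome 16, 62854307 to 62929342, plus strand) encodes protein S, an anticoagulant that also bridges phosphatidylserine to MERTK and TYRO3. At 3 weeks it was at 551, 521 and 490 CPM in WT and at 415, 463, 423 and 392 CPM in SgshKO. The SgshKO libraries were all lower, by 0.30 ± 0.09 on the log2 scale (edgeR adjusted p 0.0396), and that call was lost under 7 of 14 alternative fits, where the adjusted p reached 0.18. At 8 months the WT libraries were at 471, 386, 386 and 382 CPM and the SgshKO ones at 369.7 to 459 CPM, which overlapped (log2 0.01 ± 0.08, adjusted p 0.92). In WT, Pros1 fell by 0.36 from 3 weeks to 8 months (adjusted p 0.0151), and by 0.32 with the Ddx3y minus Xist covariate, where the adjusted p was 0.182. That WT call was also lost without WT replicate 1 at 3 weeks, and was kept in 12 of 14 alternatives.

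Stab1 (chromosome 14, 31139017 to 31168641, minus strand) encodes stabilin-1, a large receptor for phosphatidylserine and modified proteins, and was the member second to Mertk in level per kilobase in 5 of 6 groups. At 3 weeks it was at 1054, 1124 and 1311 CPM in WT and at 1350, 1278, 1319 and 1526 CPM in SgshKO. The 4-month values were 1239 and 1415 CPM against 1268 and 886 CPM. At 8 months it was at 1293, 1537, 1706 and 1544 CPM in WT and at 1085, 1255 and 1840 CPM in the lowest, median and highest SgshKO library.

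Genotypes overlapped for Stab1 at each age, and none of the 3 differences was called (log2 0.23 ± 0.15, -0.30 ± 0.20 and -0.14 ± 0.12, edgeR adjusted p 0.465, 0.329 and 0.386). Within SgshKO at 8 months the 4 libraries with Ddx3y above Xist ran from 1255 to 1840 CPM and the 3 others from 1085 to 1177 CPM, a split that was not tested.

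Scarb1 (chromosome 5, 125277087 to 125341094, minus strand) encodes SR-BI, the receptor for high-density lipoprotein. At 3 weeks it was at 57.6, 55.0 and 69.0 CPM in WT and at 66.3, 57.5, 61.4 and 64.1 CPM in SgshKO. The 4-month values were 36.5 and 38.8 CPM against 27.3 and 37.3 CPM. The genotypes overlapped at both ages and neither difference was called in edgeR (adjusted p 0.942 and 0.509).

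At 8 months Scarb1 was at 50.4, 56.8, 62.7 and 63.1 CPM in WT and at 28.6, 41.3 and 48.6 CPM in the lowest, median and highest SgshKO library, with no overlap. Scarb1 fell by 0.53 on the log2 scale (SE 0.12, edgeR adjusted p 0.000977), a call kept in all 20 alternatives. At this age 25.2% of all genes had groups that did not overlap, and of the members 3 of 9: Axl, Msr1 and Scarb1. Within WT, Scarb1 was lower at 4 months than at 3 weeks (log2 -0.68, adjusted p 0.0296) and higher at 8 than at 4 months (log2 0.63, adjusted p 0.0358), and these calls were lost under 7 of 12 and 7 of 13 alternatives, among them the TPM fit, several single libraries left out and, for the first, the Ddx3y minus Xist covariate, with adjusted p up to 0.243 and 0.284. The last comparison called 1 of 9 members, against 5.77% of all genes (2.18% higher, 3.59% lower).

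Msr1 (chromosome 8, 39603452 to 39642678, minus strand) encodes scavenger receptor A, which takes up modified lipoproteins and amyloid. At 3 weeks it was at 2.88, 1.505 and 1.95 CPM in WT and at 1.80, 2.52, 1.16 and 2.12 CPM in SgshKO, with overlap. At 4 months it was at 1.54 and 0.789 CPM against 4.52 and 3.18 CPM, higher in SgshKO by 1.76 ± 0.50 on the log2 scale (edgeR adjusted p 0.0143). That call was lost in the TPM fit (limma adjusted p 0.0559), in a fit of the 2 groups alone (0.117), and without WT replicate 2 or SgshKO replicate 1, with an adjusted p of up to 0.213.

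At 8 months Msr1 was at 2.57, 1.75, 2.31 and 1.59 CPM in WT and at 5.07, 6.05 and 10.9 CPM in the lowest, median and highest SgshKO library. Its counts there were 140 over 4 WT and 857 over 7 SgshKO libraries, and the groups did not overlap. Msr1 rose by 1.69 ± 0.30 on the log2 scale (edgeR adjusted p 6.52e-05), and the difference was larger than at 3 weeks by 1.82 ± 0.46 (adjusted p 0.0114). In the TPM fit that interaction was 1.25 with a limma adjusted p of 0.0512, and without WT replicate 1 at 3 weeks its edgeR adjusted p was 0.0595. The TPM values name another transcript of Msr1. That fit also adds 1 to group means of only 0.386 to 3.57 TPM, which shrinks the fold change, so its value is not comparable in size with that from counts. The 2 SgshKO libraries rich in monocyte and neutrophil markers had 5.82 and 5.52 CPM of Msr1, within the 5.07 to 10.9 CPM of the other 5. All SgshKO libraries of this age held far more of these markers than WT, and their part in the Msr1 difference was not tested.

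Cd36 (chromosome 5, 17781690 to 17835896, minus strand) encodes a receptor for oxidised lipoproteins, fatty acids and amyloid. At 3 weeks it was at 0.842, 0.903 and 0.894 CPM in WT and at 1.95, 0.57, 0.29 and 1.02 CPM in SgshKO. The 4-month values were 0.118 and 0.861 CPM against 2.81 and 3.44 CPM, which did not overlap but was not called (log2 2.57 ± 1.03, edgeR adjusted p 0.0852; DESeq2 adjusted p 0.0443). At 8 months it was at 0.208, 0.582, 0.944 and 0.177 CPM in WT and at 0.346, 1.59 and 2.76 CPM in the lowest, median and highest SgshKO library.

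The 8-month difference of Cd36 was called in edgeR (log2 1.72 ± 0.65, adjusted p 0.0371), on 37 counts in WT and 227 in SgshKO, although the groups overlapped. It was lost under 11 of 20 alternatives, among them the fit without the 2 libraries rich in monocyte and neutrophil markers (adjusted p 0.0558) and the fit of libraries with Ddx3y above Xist (0.0611), both chosen later, with results in view. The highest adjusted p, 0.156, came with the replicate number as a block.

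Timd4 (chromosome 11, 46810799 to 46844333, plus strand) encodes TIM-4, a phosphatidylserine receptor of resident macrophages. It was at 0 in all WT libraries at 3 weeks and at 4 months, in both SgshKO libraries at 4 months and in 3 of 4 SgshKO libraries at 3 weeks. At 8 months it had 1 count in WT and 28 counts in SgshKO. Of these, 19 were in replicate 1, which is 1 of the 2 libraries rich in monocyte and neutrophil markers, and none was in 3 of the 7 libraries. The ratio per library size was 14.3, with an exact 95% interval of 2.36 to 583 that covers counting error only and takes the 7 libraries as 1. No test across libraries was made.

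Per kilobase of transcript, the order at 8 months in WT was Mertk (292 CPM per kilobase), Stab1 (192), Pros1 (124), Gas6 (70.7), Scarb1 (23.2) and Axl (3.35), with ranges of neighbours that did not overlap, and then Msr1 (0.566), Cd36 (0.136), Tyro3 (0.0993) and Timd4. Cd36 and Tyro3 could not be told apart by their ranges. In SgshKO at the same age Axl, at 93.3 CPM per kilobase, came after Mertk (235), Stab1 (174) and Pros1 (125), and its range overlapped those of Pros1 and Gas6. These lengths are of the transcripts that the count table names.

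Within SgshKO, Axl and Msr1 were called higher and Gas6 and Scarb1 lower at 8 months than at 3 weeks, 4 of 9 members against 30.6% of all genes (15.5% higher, 15.1% lower). Axl rose by 3.43 ± 0.21 on the log2 scale (edgeR adjusted p 1.66e-11), Msr1 by 1.79 ± 0.30 (adjusted p 6.84e-05), and Scarb1 fell by 0.63 (adjusted p 0.00029). All 4 calls were kept in all 20 alternatives. Over the 22 libraries of the age series, the genes most like Axl by Pearson r of log2 CPM were Lilrb4a (0.988), Aplp2 (0.987) and Gpx3 (0.985), and the member most like it was Msr1 (0.866). Mertk was most like Foxk1 (0.885), Msr1 most like Cd84 (0.916), and Gas6 was close to Scarb1 among the members (0.820). These values describe libraries that share genotype, age and depth.

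The other genes of the pathway, taken from lists written with earlier results of these data known, moved in both directions. Of 17 tested genes for other phosphatidylserine recognition, 11 were called higher and 4 lower at 8 months, with a median log2 fold change of 0.56 beside 0.02 over all genes. In this comparison 21.6% of all genes were called higher and 18.9% lower. The largest were Anxa1, a phosphatidylserine-binding annexin, Cd300lb, a receptor of the CD300 family (log2 4.04 ± 0.29, edgeR adjusted p 4.9e-11), and Anxa5, the annexin used to stain dying cells (3.41 ± 0.11, adjusted p 3.24e-17). Anxa1 had 7022 counts in SgshKO and 3 in WT, a ratio of 1192 per library size with an exact 95% interval from counting of 408 to 5781. The genes called lower with the largest change were Cd14 (-0.81), Itgav (-0.75) and Itgb3 (-0.64), the last 2 being the subunits of the integrin that binds the bridging protein MFG-E8.

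Of 14 tested genes for other scavenger receptors, 8 were called higher and 1 lower at 8 months, with a median of 1.35. Colec12, a collectin scavenger receptor, was higher by 6.04 ± 0.75 on the log2 scale (edgeR adjusted p 4.7e-07). Clec7a, the glucan receptor dectin-1, rose from 7.61 to 360.4 CPM in the mean (log2 5.61 ± 0.29, adjusted p 9.3e-14). Olr1, a receptor for oxidised lipoprotein, was higher by 4.41 ± 0.67 (adjusted p 1e-05), and Ager was the 1 gene called lower (log2 -1.25, adjusted p 0.00896).

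Of 21 genes for engulfment signalling, 8 were called higher and 8 lower at 8 months, with a median of 0.14. Elmo1 (log2 -0.996 ± 0.060) and Trio (-0.86 ± 0.07), which act in the activation of Rac, and Vav1 (-0.39 ± 0.06) had the largest falls, with edgeR adjusted p of 1.96e-12, 3.39e-10 and 1.69e-05. Rac2 (0.58 ± 0.14) and Abca7 (0.56 ± 0.09) rose. Vav3 had 185 counts in SgshKO and 0 in WT, at least 31.4-fold higher when the whole WT group is set to 3 counts.

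Of 12 genes for TAM shedding and brakes on engulfment, 2 were called higher and 4 lower at 8 months, with a median of -0.14. Socs3, a feedback inhibitor of cytokine signalling (log2 -1.70 ± 0.30), Siglece, an inhibitory receptor (-1.32 ± 0.07), and Rhbdf1, a partner of the sheddase ADAM17 (-0.75 ± 0.12), fell (edgeR adjusted p 7.75e-05, 4.95e-13 and 1.65e-05). Cd24a, which engages inhibitory Siglecs, had 1625 counts in SgshKO and 1 in WT, that is 827 times as many per library size (interval from counting, 148 to 32701), and Rhbdf2 rose by 0.71 ± 0.15. Of 8 nuclear receptor genes, 4 were called higher and 1 lower, with a median of 0.40. Pparg had 151 counts against 2, 38.4 times as many (10.5 to 320). Ppargc1b rose by 1.20 ± 0.33 on the log2 scale, Rxra by 0.51 ± 0.08, and Rxrb fell by 0.45.

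The same lists were counted at the earlier ages, where the groups differ in size. At 3 weeks 3 genes of other phosphatidylserine recognition were called higher and 2 lower, 3 and 0 of the other scavenger receptors, 3 and 2 of engulfment signalling, 0 and 2 of shedding and brakes, and 2 and 0 of the nuclear receptors. In that comparison 5.31% of all genes were called higher and 3.72% lower. Anxa5 was already higher by 2.57 ± 0.13 on the log2 scale (edgeR adjusted p 2.1e-12). At 4 months the counts were 6 and 3, 7 and 2, 2 and 4, 1 and 2, and 1 and 1 in the same order, beside 10.3% and 9.26% of all genes. Clec7a was then higher by 5.08 ± 0.41 (adjusted p 3.15e-09).

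Of the 10 monocyte and neutrophil markers 7 were called higher at 4 months and 7 at 8 months. These were Ly6c2, S100a8, S100a9, Ngp, Camp, Ltf and Chil3 at both ages. Ccr2 (log2 -1.10 at 4 months and 0.21 at 8 months), Vcan (-0.22 and 0.45) and Plac8 were not called at either age. Plac8 was higher in SgshKO at both ages, with edgeR adjusted p of 0.0615 and 0.141. Of the 8 border macrophage markers 2 and 6 were called higher at these ages, and no marker of either list was called lower. At 8 months Mrc1, the most abundant border marker, had a mean of 69.3 CPM in SgshKO and 19.7 CPM in WT (log2 1.82, edgeR adjusted p 1.55e-07). Ms4a7 (4.45 and 0.0118 CPM), Cd163 (1.33 and 0.109), Pf4 (0.766 and 0.0638), F13a1 (3.35 and 0.488) and Folr2 (2.40 and 0.649) were called higher too, and Cbr2 and Lyve1 were not called. The part of these cells in the values of Anxa1, Cd24a, Vav3, Olr1 and the other genes low in WT was not tested.

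**Figure D3:**
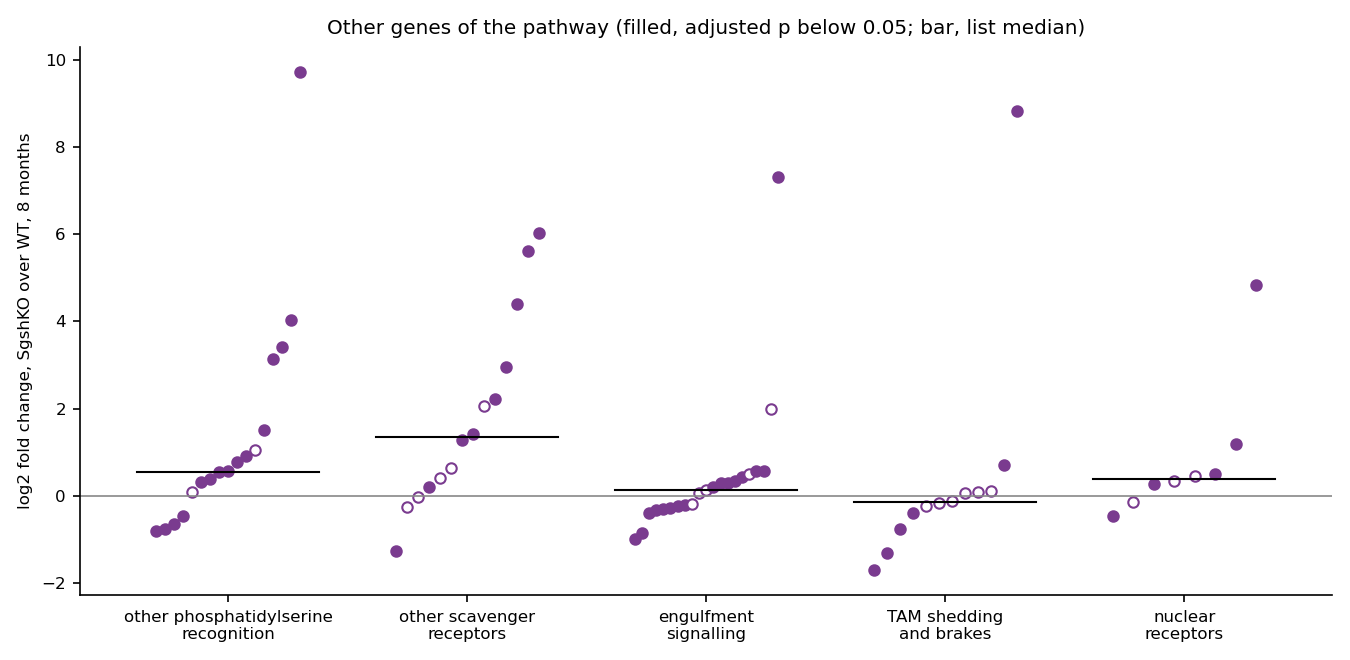
Log2 fold change of SgshKO over WT at 8 months for the tested genes of the 5 other lists, 1 point per gene, with a bar at each list's median. The medians are 0.56 for other phosphatidylserine recognition, 1.35 for other scavenger receptors, 0.14 for engulfment signalling, -0.14 for shedding and brakes and 0.40 for nuclear receptors.

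The ASO set in WT mice addressed each of the 3 factors singly. Axl was higher and Mertk lower with the Mitf ASO, Mertk was lower with the Tfe3 ASO, and no member was called with the Tfeb ASO. Each target was lowered: Mitf had 34.5 to 50.4 CPM with ntc and 1.01 to 2.15 CPM with its ASO, Tfeb 52.6 to 58.1 and 4.59 to 6.91 CPM, and Tfe3 192 to 202 and 34.9 to 40.5 CPM. The fits held treatment and the titles' grp, 1 to 4, which equals the replicate number. Of 7 members tested, 1 was called higher and 1 lower with the Mitf ASO against ntc, beside 5.77% and 5.21% of 10277 genes, or 11% in all. With the Tfe3 ASO 0 were higher and 1 lower, beside 1.46% and 0.701%, or 2.16% in all.

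With ntc, Axl was at 19.4, 19.9, 40.3 and 18.2 CPM in grp 1 to 4, and with the Mitf ASO at 38.3, 29.4, 59.5 and 48.2 CPM. It was higher with the Mitf ASO in each of the 4 grp, by 0.56 to 1.41 on the log2 scale, although the 2 ranges overlapped because of the ntc library of grp 3. The log2 fold change was 0.85 ± 0.23 with an edgeR adjusted p of 0.0237. Without grp in the fit the adjusted p was 0.131, in the batch-corrected signal 0.0806, and the call was also lost without ntc replicate 1 or 4 or Mitf replicate 3 or 4. The 1 border macrophage marker of 8 that has a row in this table was at 39.1 to 56.2 CPM with the Mitf ASO and at 28.9 to 49.3 CPM with ntc, and its part in the result was not tested.

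With the Tfeb ASO, Axl was at 29.8, 22.1, 21.8 and 29.3 CPM, and with the Tfe3 ASO at 46.6, 21.4, 29.0 and 31.5 CPM. Both were above ntc in 3 of 4 grp and neither was called (log2 0.13 ± 0.24 and 0.43 ± 0.23, edgeR adjusted p 0.838 and 0.379). The Mitf ASO did not differ from the other 2 by a call either, at 0.72 ± 0.23 over Tfeb (adjusted p 0.0971) and 0.42 ± 0.23 over Tfe3 (adjusted p 0.398). These comparisons share libraries.

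Mertk with ntc was at 860, 888, 1083 and 1068 CPM in grp 1 to 4. With the Mitf ASO it was at 758, 834, 915 and 879.6 CPM, and with the Tfe3 ASO at 768, 847, 934 and 884 CPM, lower than ntc in all 4 grp for both. The ranges overlapped, since grp 1 and 2 were lower than grp 3 and 4 under every treatment. Mertk fell by 0.20 on the log2 scale with the Mitf ASO (SE 0.04, edgeR adjusted p 0.00428) and by 0.18 with the Tfe3 ASO (SE 0.04, adjusted p 0.0262). Without grp in the fit the adjusted p were 0.352 and 0.741. The Mitf call was kept in the other 13 of 14 alternatives, whereas the Tfe3 call was kept in 5 of 14 and was also lost with only the 2 groups in the fit (adjusted p 0.0843) and without any 1 of 7 libraries. With the Tfeb ASO it was at 766, 902, 992 and 911 CPM (log2 -0.13 ± 0.04, adjusted p 0.176).

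**Figure D4:**
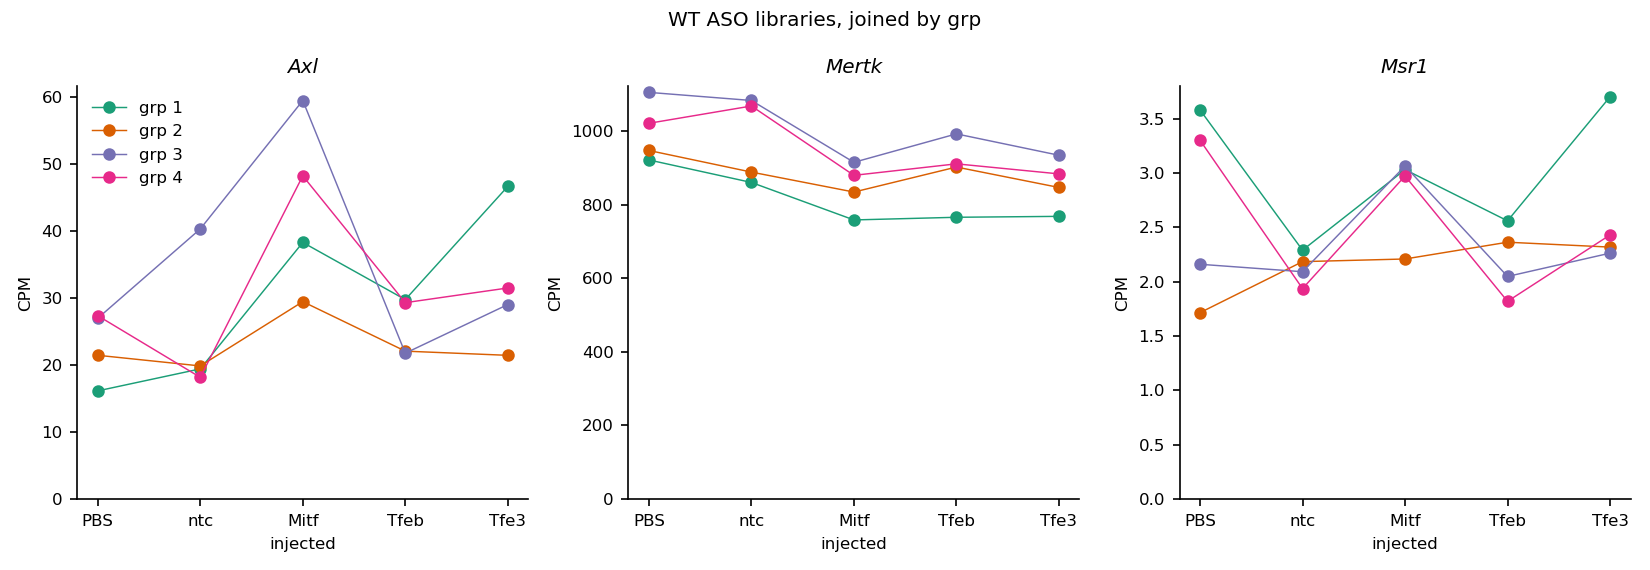
CPM of Axl, Mertk and Msr1 in the 20 WT ASO libraries, on linear axes from 0, by what was injected, with libraries of the same grp joined. Axl in grp 1 to 4 goes from 19.4, 19.9, 40.3 and 18.2 CPM with ntc to 38.3, 29.4, 59.5 and 48.2 CPM with the Mitf ASO, and Mertk is lower with the Mitf and the Tfe3 ASO than with ntc in each grp.

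The other 5 members were not called with any ASO. Msr1 was at 2.29, 2.19, 2.09 and 1.94 CPM with ntc and at 3.03, 2.21, 3.07 and 2.97 CPM with the Mitf ASO, higher in 4 of 4 grp, but the difference missed the threshold (log2 0.40 ± 0.21, edgeR adjusted p 0.233). Scarb1 ran from 30.4 to 47.3 CPM with ntc and from 30.7 to 43.7 CPM with the Mitf ASO (log2 -0.17 ± 0.08, adjusted p 0.201). Gas6, Pros1 and Stab1 had log2 fold changes between -0.13 and 0.12 under the 3 ASOs.

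No member was called between ntc and PBS in edgeR or DESeq2, and 1 had an unadjusted p below 0.05: Gas6, at 129, 121, 180.1 and 141 CPM with ntc and 228, 132, 194 and 135 CPM with PBS (log2 -0.26 ± 0.11, edgeR adjusted p 1). Over all genes, edgeR called none, 0%, in that comparison, and DESeq2 called 2. For the Tfeb ASO against ntc 0.778% of genes passed, and of the members none in either tool, with 1 at an unadjusted p below 0.05. Between ASOs no member was called by either tool, with 1 at an unadjusted p below 0.05 for Mitf against Tfeb and none for the other 2 pairs, where 3.53%, 3.76% and 1.62% of genes passed for Mitf against Tfeb, Mitf against Tfe3 and Tfeb against Tfe3.

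With the Mitf ASO, 6 of 14 genes of other phosphatidylserine recognition were called higher and 2 lower, and 4 of 8 other scavenger receptor genes higher. Engulfment signalling had 1 higher and 3 lower of 19, shedding and brakes 0 and 3 of 11, and the nuclear receptors none of 5, beside 5.77% higher and 5.21% lower over all genes. The medians were 0.21, 0.38, -0.03, -0.08 and 0.06 on the log2 scale in this order, and -0.01 over all genes.

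In SgshKO mice, Axl was lower with the Mitf and Tfe3 ASOs than with ntc, and it was the 1 member called of 7, beside 4.5% of 10589 genes called lower and 4.84% higher, or 9.33% in all. Mitf stood at 60.7 to 82.1 CPM with ntc and at 7.51 to 23.2 CPM with the ASOs, and Tfe3 at 137 to 194 and 75.0 to 87.1 CPM. Axl with ntc ran from 248 CPM through a median of 308 CPM to 333 CPM, and with the ASOs from 204 CPM through 231 CPM to 318 CPM. The ranges overlapped, and Axl fell by 0.32 on the log2 scale (SE 0.08, edgeR adjusted p 0.018). The 1 border macrophage marker with a row was at 116 to 183 CPM with ntc and 155 to 195 CPM with the ASOs, and the 7 monocyte and neutrophil markers summed to 5.04 to 585 and 4.32 to 376 CPM; their part was not tested.

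The 2 grp of this set were not alike in spread. In grp 1 Axl was at 329.9, 299, 333 and 248 CPM with ntc and at 318, 276, 258 and 204 CPM with the ASOs. In grp 2 it was at 286, 314, 302 and 326 CPM against 237, 226, 217 and 224 CPM, with no overlap. Within grp 1 alone the log2 fold change was -0.18 (edgeR adjusted p 0.463). The effect in grp 2 minus that in grp 1 was -0.25 ± 0.15 (adjusted p 0.418), chosen later with results in view, so a difference between the grp was not shown.

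**Figure D5:**
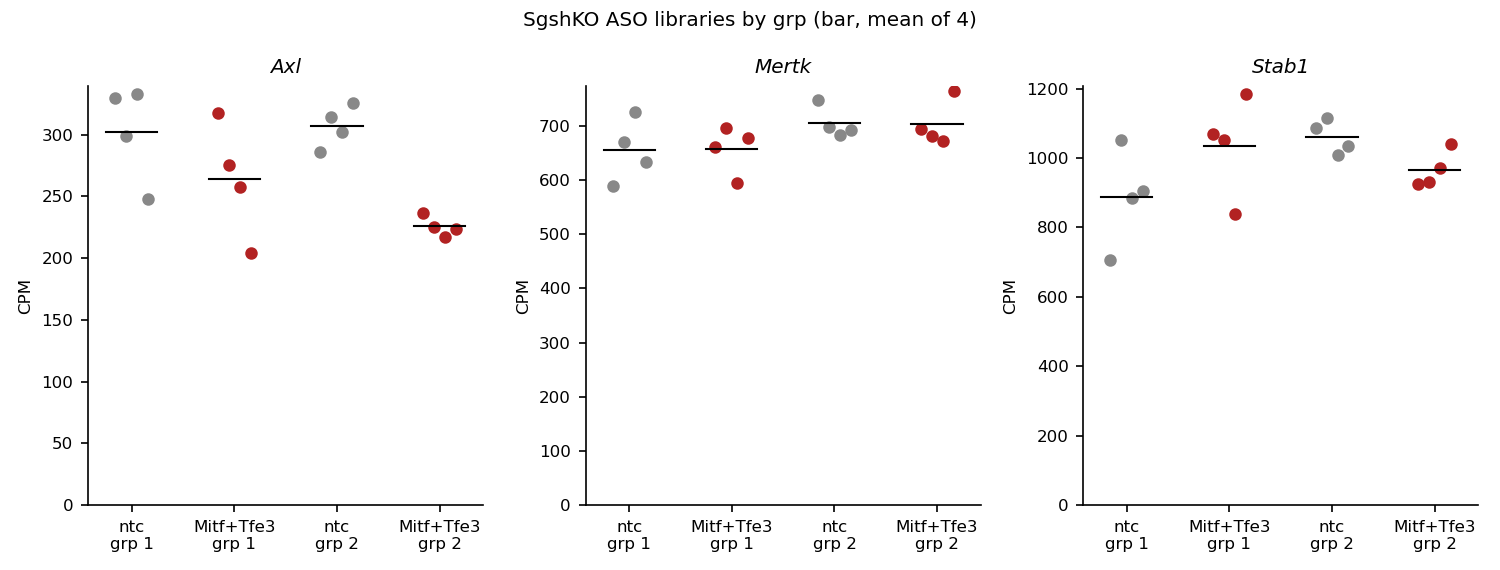
CPM of Axl, Mertk and Stab1 in the 16 SgshKO ASO libraries, on linear axes from 0, by grp and by ASO, with a bar at the mean of 4 libraries. In grp 2 Axl lies at 286 to 326 CPM with ntc and at 217 to 237 CPM with the Mitf and Tfe3 ASOs, while in grp 1 the libraries overlap.

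The other 6 members with a row were not called. Mertk ran from 589 through 688 to 748 CPM with ntc and from 595 through 679 to 765 CPM with the ASOs, and its log2 fold change was 0.00 ± 0.05. Stab1 ran from 708 to 1117 CPM and from 838 to 1184 CPM (0.04 ± 0.08). Scarb1, Gas6, Pros1 and Tyro3 had log2 fold changes of -0.02 ± 0.06, 0.05 ± 0.05, -0.04 ± 0.05 and 0.22 ± 0.22, with edgeR adjusted p from 0.576 to 0.905.

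Among the other lists in SgshKO mice, Clec7a (log2 -0.55 ± 0.07, edgeR adjusted p 0.000219) and Cd68, a lysosomal scavenger receptor (-0.31 ± 0.05, adjusted p 0.00127), were the 2 of 9 other scavenger receptor genes called, both lower. Of 14 genes of other phosphatidylserine recognition 4 were called higher, led by C1qb (0.47 ± 0.07, adjusted p 0.000408), and Cd300a was called lower (-0.24). Engulfment signalling had 3 higher and 0 lower of 20, shedding and brakes 0 and 1 of 10, and the nuclear receptors none of 6, beside 4.84% higher and 4.5% lower over all genes. The medians on the log2 scale were -0.06 for other scavenger receptors, 0.11 for other phosphatidylserine recognition, 0.08 for engulfment signalling, -0.06 for shedding and brakes and -0.06 for nuclear receptors, and 0.00 over all genes.

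Reads of a gene and of a gene that overlaps it on the other strand are hard to separate unless strand was used in counting, which is not given in the sources used here. Gas6 overlaps Tmem255b and Stab1 overlaps Nt5dc2 in this way, and for these members the 2 sources cannot be told apart.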

How the data were processed

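The members and gene lists were chosen with earlier results of these data known. The authors deposited raw counts per gene for 22 age series, 20 WT ASO and 16 SgshKO ASO libraries, TPM for the age series, and a batch-corrected signal for the ASO sets, per the file headers. The submitters' processing notes name STAR 2.5.3a, kallisto 0.44.0, HOMER 4.11, DESeq2 1.36.0 and mm10, without saying which made which file. The test of the counts was the quasi-likelihood F test of edgeR 4.0.16 under R 4.3.3, after TMM scaling and the filterByExpr filter (minimum count 10), 1 fit per table, with Benjamini-Hochberg adjustment over all genes tested and a threshold of 0.05. The age fit held the 6 groups, and the ASO fits treatment and grp. The script was tested on simulated counts. An SE is the absolute log2 fold change divided by the square root of F, so it restates the test. The deposited TPM and signal served as alternatives with limma 3.58.1 on log2(value + 1), besides DESeq2 1.42.0. The added 1 shrinks fold changes of genes with few TPM, such as Msr1 and Cd36. PBS replicate 4 is grp 4 by its title and grp 3 by its column name, and was put in grp 4. No 2 libraries held identical values. All 10 members are named. Of the other lists, up to 3 called genes per direction and list were to be named in the genotype and SgshKO ASO comparisons, and not all of them are. The 3 genes most alike were ranked per member. Protein sequences were not used here. The values of 1 gene of these lists are not reported here.

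After removal of group means, same-numbered libraries of the age series correlated with r of -0.173 to 0.143, so the number was no block there. In the WT ASO set r ran from 0.029 to 0.695 over 40 pairs, and each of the 20 libraries was most correlated, on average, with its own number. Grp is in the titles, and the authors deposited a batch-corrected table, so grp was kept in the fit.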

Additional observations from a re-analysis of the deposited data

Results flagged for a closer look

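The genotype difference of Axl was larger at 4 months than at 3 weeks by 3.56 on the log2 scale and at 8 months by 3.86, and that of Msr1 was larger at 8 months by 1.82, each by an edgeR interaction test over all genes. The call for Msr1 was lost in the TPM fit and without WT replicate 1 at 3 weeks.

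Single libraries stood apart from the rest of their group in 13 of 79 gene and group combinations checked with Dixon's test at the 95% level, where chance alone flags about 1 in 20. In SgshKO at 8 months these were Gas6 in replicate 2 (248 CPM, next 166), Msr1 in replicate 2 (10.9 CPM, next 6.89), Tyro3 in replicate 4 (1.31 CPM, next 0.563) and Timd4 in replicate 1 (0.699 CPM, next 0.189). In WT at 8 months Pros1 was at 471 CPM in replicate 1 (next 386), and Timd4 at 0.0694 CPM in the same library, where the others had 0. At 3 weeks Timd4 was at 0.0951 CPM in SgshKO replicate 2 and at 0 in the other 3. The Timd4 flags in these last groups rest on 1 and 2 counts. They follow from the zeros, since any 1 library with counts is flagged where the others have 0. They should be left out when the 13 are set against chance.

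Among WT ASO libraries, replicate 3 had 40.3 CPM of Axl with ntc (next 19.9), 163 CPM of Gas6 with the Tfeb ASO (next 137) and 155 CPM of Gas6 with the Tfe3 ASO (next 123). Pros1 was at 642 CPM in replicate 4 with the Tfeb ASO (next 617). Msr1 was at 2.21 CPM in replicate 2 with the Mitf ASO (next 2.97) and at 3.70 CPM in replicate 1 with the Tfe3 ASO (next 2.43).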

How the results depend on the processing

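The smaller shifts in the count of members called, up to 1.5 times, were 4 with DESeq2 at 4 months (3 reported) and, at 8 months (5 reported), 4 with the replicate block, with only the 2 groups, and in both fits of fewer 8-month libraries. They were also 3 for the genotype difference at 8 months minus 3 weeks (2 reported) with no filter and with Ddx3y-high 8-month libraries alone, and 3 in WT at 8 months against 3 weeks (2 reported) with only the 2 groups. The larger shifts follow. SgshKO against WT at 3 weeks (2 members called) gave 1 with no filter on low counts and 1 with the replicate block, and at 4 months (3) gave 1 with only the 2 groups. The genotype difference at 8 months minus 3 weeks (2) gave 4 with DESeq2 and 1 with TPM. In WT, 4 months against 3 weeks (2) gave 1 with TPM, 1 with the replicate block and 1 with the Ddx3y minus Xist covariate, 8 months against 3 weeks (2) gave 1 with TPM and 0 with that covariate, and 8 against 4 months (1) gave 0 with TPM and 0 with the replicate block. The Mitf ASO (2) gave 1 with the batch-corrected signal and 0 with no replicate block, the Tfe3 ASO (1) gave 0 with no replicate block and 0 with only the 2 groups, and Mitf against Tfeb ASO (0) gave 1, Axl, with only the 2 groups. The SgshKO ASO comparison (1) gave 0 within grp 1.

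Leaving out 1 library at a time gave 0 to 2 members at 3 weeks, 1 to 2 at 4 months and 4 to 6 at 8 months. It gave 1 to 2 and 1 to 4 for the genotype difference at 4 and 8 months minus 3 weeks and 0 at 8 minus 4 months. It gave 0 to 1, 0 to 2 and 0 to 1 for the WT ages in the order above and 4 in SgshKO. It gave 1 to 2 for the Mitf ASO, 0 to 1 for Tfe3, 0 for Tfeb, for ntc against PBS and between ASOs, and 1 in SgshKO. Apart from fits with fewer samples or genes, the cause was not tested.

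Of the values for single genes under alternatives, 2279 stayed on their side of the threshold, 75 were no longer called and 17 became called. None that was called changed sign. Changes of sign in values that were not called are not counted here. Same-numbered libraries of the age series did not deviate together within an age. Why calls were lost under the replicate block of that series was not tested. In the age series depth limits Tyro3, Cd36, Msr1 and Timd4, with 0 to 158 counts a library.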
